A study of Arabidopsis thaliana with 6 samples.

Results

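The ZAT and AZF genes of Arabidopsis thaliana encode small C2H2 zinc finger transcription factors. The 10 described here were listed by locus, as a family, with no threshold on their values: ZAT5 (AT2G28200), ZAT6 (AT5G04340), ZAT7 (AT3G46090), ZAT8 (AT3G46080), ZAT10 (AT1G27730, also STZ), ZAT11 (AT2G37430), ZAT12 (AT5G59820, also RHL41), AZF1 (AT5G67450), AZF2 (AT3G19580) and AZF3 (AT5G43170). They are 10 of the 27655 gene loci in the RNA-seq tables, and the family was chosen with earlier results of these data known. RNA was measured in 1 library from wild type (Col-0) leaves and 1 library from leaves of jmj16-1, the insertion line SAIL_535_F09 in the Col-0 background, a single allele. JMJ16 is a demethylase of lysine 4 on histone H3, and the series title links it to leaf senescence. Both libraries came from rosette leaves 5 and 6, fully expanded and not yet visibly yellow, of plants moved to soil after 6 days on plates and kept at 22 °C in days of 16 h light and 8 h dark. Plant age is 4 weeks in the sample characteristics and 5 weeks in the source names. The 4 chromatin samples of the series were not analysed here.

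Proteins of this family typically carry a pair of widely spaced C2H2 fingers that bind DNA and, near the C-terminus, an EAR motif, a short repression motif through which transcription factors recruit TOPLESS-type corepressors and histone deacetylases. Most family members are known as fast, transient responders to salt, cold, drought, wounding, strong light and reactive oxygen, and several are phosphorylated by mitogen-activated protein kinases. ZAT10, ZAT12 and ZAT6 are the best studied: each has been tied to tolerance of oxidative or ionic stress, and ZAT12 to the expression of the cytosolic ascorbate peroxidase APX1.

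The wild type library held 10643186 estimated counts and the jmj16-labelled library 13844284. JMJ16 (AT1G08620) had 188 wild type counts and 168 in the jmj16-labelled library, a log2 ratio of -0.63 (95% counting interval -0.94 to -0.33) that became 0.37 after correction for transcript length, so its reads do not check the label. The 6 leaf markers were abundant in both libraries, from 1049 to 21591 TPM in wild type and from 162 to 15933 TPM in the jmj16-labelled library. Their summed level was 46879 and 32869 TPM. All 6 had log2 ratios below 0, from -2.77 to -0.44, with RBCS2B and LHB1B1 past 2-fold lower. Their median was -0.80 after correction for transcript length. Of 8 flower, seed, apex and root markers, 2 had a wild type level of 0 and 5 were at 0 in the other library, and their summed level was 8.53 and 6.10 TPM. Most of both sums came from the root marker SCR, with 188 and 225 counts, or 5.96 and 5.40 TPM. Only the seed storage gene CRA1 among these 8 passed the rule, with 23 and 0 counts. The part of these markers in the results was not tested.

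Transcripts of the ZAT and AZF family were more abundant in the jmj16-labelled library. The summed level of the 10 genes was 90.6 TPM in wild type and 225 TPM in the jmj16-labelled library. Each of the 10 had the higher TPM in the latter, ZAT11 on only 0 and 4 counts. TPM is a level per transcript length, relative to the total of its library. In the log2 ratio of scaled counts, a call of higher or lower needed a difference of 2-fold or more and an exact 95% counting interval of the ratio that left out 1. By this rule 7 of the 10 were higher (ZAT5, ZAT7, ZAT8, ZAT10, ZAT12, AZF1 and AZF3), 0 lower, and ZAT6 and AZF2 neither. ZAT11 fell under the minimum of 20 reads over both libraries. Of all 17151 loci measured, 7.22% were called higher and 10.6% lower. The median log2 ratio over the 9 measured members was 1.41, with a range of 0.61 to 3.01, against 0.02 over all measured loci. All 9 ratios were above 0, as for 51.2% of all measured loci and 68.8% of those of 702 to 1431 nt, the members' length range. The 95% Poisson intervals of the TPM did not overlap between the libraries for 8 of the 10, AZF1 and ZAT11 being the others, and 28.1% of measured loci lay apart in this way with the jmj16-labelled library higher. AZF1 and ZAT8 reached the minimum only with the reads of the jmj16-labelled library, so these counts are a description. With 1 library per genotype no difference has a replicate check, no p-value is given, and intervals cover counting error only. In whole leaves, more cells expressing a gene and more RNA per cell cannot be told apart.

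**Figure D1:**
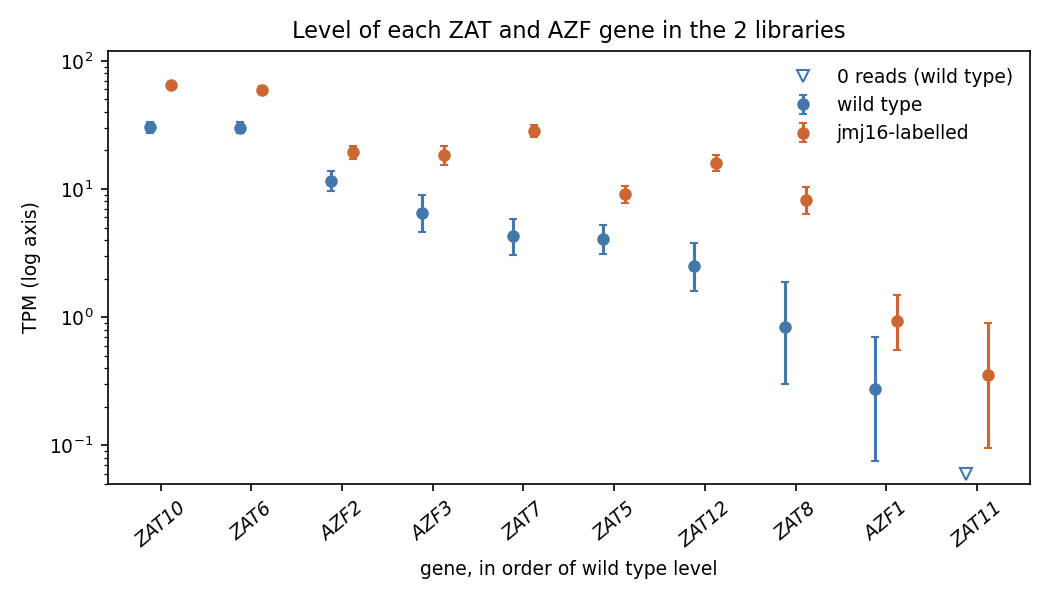
Level of each of the 10 genes in TPM on a log axis, ordered by the wild type level, with wild type in blue and the jmj16-labelled library in orange. Bars are 95% Poisson intervals of the counts, and the open triangle marks ZAT11 with 0 wild type reads. ZAT10 and ZAT6 lead in both libraries, and ZAT7, ZAT12 and ZAT8 have the widest gaps between libraries.

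ZAT10 and ZAT6 were the most abundant members in both libraries. ZAT10, the salt tolerance zinc finger, represses transcription and is a substrate of MPK3 and MPK6. It had 399 counts (95% Poisson interval 361 to 440) or 30.4 TPM in wild type, and 1126 counts (1061 to 1194) or 64.9 TPM in the jmj16-labelled library. Its ratio was 2.03-fold (1.81 to 2.29), just past the rule. ZAT6, which acts in phosphate homeostasis, root growth and cadmium tolerance, had 396 counts (358 to 437) or 30.1 TPM in wild type. In the jmj16-labelled library it had 1039 counts (977 to 1104) or 59.8 TPM. Its ratio of 1.89-fold (1.68 to 2.13) stayed just under the rule. The calls of ZAT10 and ZAT6 lie on either side of 2-fold, but their intervals overlap in the ratio and, within each library, in the level. Together these 2 genes made up 66.7% of the family's summed wild type TPM and 55.3% in the jmj16-labelled library.

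ZAT7, ZAT8 and ZAT12 had the highest ratios, a trio named after their values were seen. ZAT12, the high-light and reactive oxygen responder, had 23 counts (14.6 to 34.5) or 2.52 TPM in wild type and 193 counts (167 to 222) or 16.0 TPM in the jmj16-labelled library, 5.94-fold higher (3.92 to 9.78). ZAT7, which has been linked to salt tolerance, had 40.3 estimated counts (28.9 to 54.9) or 4.29 TPM in wild type. It had 352 (316 to 390) or 28.3 TPM in the jmj16-labelled library, 6.28-fold higher (4.57 to 9.04). ZAT8, whose function is little described, had 5.66 counts (2.0 to 12.6) or 0.845 TPM in wild type and 72.2 counts (56.5 to 90.9) or 8.17 TPM in the jmj16-labelled library. Its ratio was 8.04-fold (3.79 to 24.4), with a wide interval because wild type reads were few. These were the only members past a 4-fold rule, which 1.49% of measured loci passed upward and 1.7% downward, and the only members whose interval lay wholly beyond 2-fold, as for 2.84% of measured loci upward and 4.71% downward.

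The trio's place in the whole transcriptome and in the family's sum is a description, since its genes were named for their high ratios. By TPM, ZAT7 stood above 57.6% of all loci in wild type and above 84.7% in the jmj16-labelled library. For ZAT12 these shares were 50.8% and 77.4%, and for ZAT8 40.7% and 67.5%. The other measured members rose too, among them AZF3 from 64.3% to 79.4% and ZAT5 from 56.9% to 69.0%. ZAT10, already high, went from 87.1% to 92.3%. The trio's part of the family's summed TPM went from 8.45% in the wild type library to 23.3% in the jmj16-labelled library. Without it, the other 7 genes summed to 82.9 and 173 TPM.

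The AZF genes code for repressors known to respond to abscisic acid and salt. AZF2, the most abundant of them, had 128 counts (107 to 152) or 11.6 TPM in wild type and 271 (240 to 305) or 19.3 TPM in the jmj16-labelled library. Its ratio of 1.52-fold (1.23 to 1.90) was the lowest of the 9 measured members and did not pass. AZF3 had 37 counts (26.1 to 51.0) or 6.55 TPM in wild type and 138 (116 to 163) or 18.5 TPM in the jmj16-labelled library, 2.66-fold higher (1.86 to 3.98). AZF1 was near the limit of detection in both libraries, with 4.02 counts (1.10 to 10.3) or 0.277 TPM in wild type and 18.0 counts (10.7 to 28.5) or 0.940 TPM in the jmj16-labelled library. It passed at 2.96-fold with an interval that almost reaches 1 (1.07 to 13.2).

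ZAT5 and ZAT11 complete the family as listed here. ZAT5 had 60 counts (45.8 to 77.2) or 4.07 TPM in wild type and 177 counts (152 to 205) or 9.10 TPM in the jmj16-labelled library, 2.12-fold higher (1.58 to 2.90). Its neighbour in the RefSeq gene order, the chloroplast superoxide dismutase gene CSD2, was 2.06-fold higher (1.84 to 2.32). The ratios of members and their neighbours were not compared as a set. ZAT11, which has been linked to cell death and nickel tolerance, had 0 counts in wild type and 4 (1.09 to 10.2) in the jmj16-labelled library, or 0.352 TPM. The Poisson interval of a count of 0 reaches 3.69 counts and overlaps that of the other library. No difference was detectable at this depth.

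**Figure D2:**
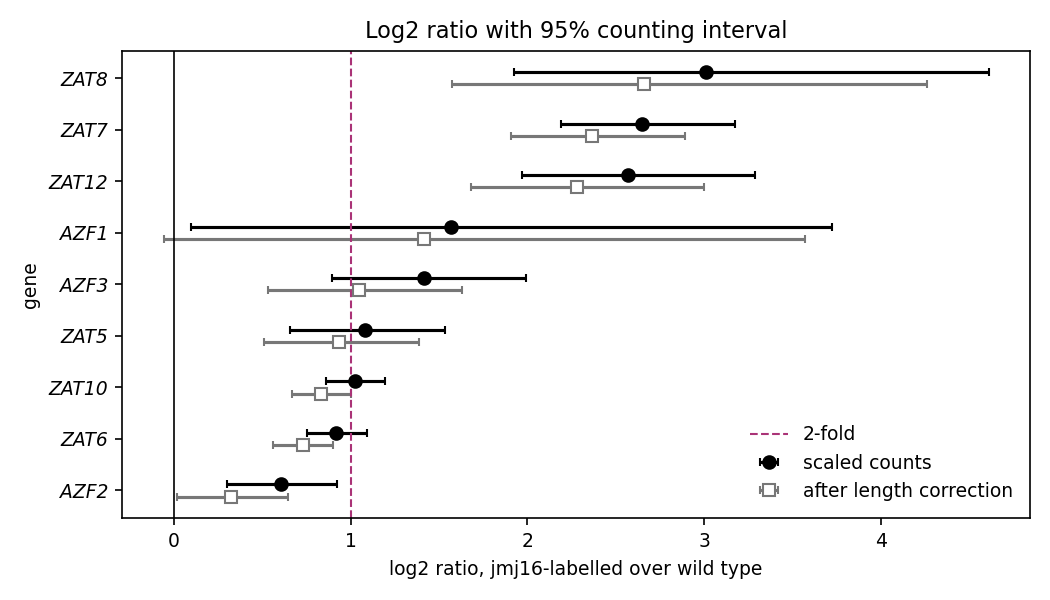
Log2 ratio (jmj16-labelled over wild type) for the 9 measured genes, from scaled counts (filled) and after correction for transcript length (open), with 95% counting intervals and the 2-fold line. ZAT8, ZAT7 and ZAT12 lie beyond 2-fold with their whole interval in both versions, and AZF2 is lowest at 0.61 and 0.33.

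The order of the ratios among members was only partly resolved. Of 36 pairs of measured members, 13 had counting intervals that did not overlap. These were ZAT7, ZAT8 and ZAT12 against each of ZAT5, ZAT6, ZAT10 and AZF2, and ZAT7 against AZF3. Scaling shifts all ratios alike, so it cannot change this order. In levels, ZAT10 and ZAT6 overlapped in both libraries and stood apart from the next gene. In wild type AZF2 came next and stood apart from AZF3, while neighbours from AZF3 through ZAT7, ZAT5, ZAT12 and ZAT8 to AZF1 overlapped pair by pair. In the jmj16-labelled library ZAT7 took the third position, apart from AZF2 below it, and AZF2, AZF3 and ZAT12 overlapped. ZAT12 stood apart from ZAT5, ZAT5 and ZAT8 overlapped, and ZAT8 stood apart from AZF1.

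Some members share reads with close relatives. Salmon, named in the submitters' processing notes, divides a read that fits several transcripts among them, so a count that is not whole marks such sharing. Counts of 6 members were whole within 0.01 in both libraries (ZAT5, ZAT6, ZAT10, ZAT11, ZAT12 and AZF3), and those of ZAT7, ZAT8, AZF1 and AZF2 were not. AZF1 and AZF2 added up to whole numbers, 132 and 289. ZAT7, ZAT8 and the locus AT3G46070, which precedes ZAT8 in the RefSeq gene order, added up to 46 and 430. The ZAT7, ZAT8 and AT3G46070 group was 6.68-fold higher (4.97 to 9.35) in the jmj16-labelled library. AT3G46070 gave 0 and 6.19 of these counts. The AZF1 and AZF2 group had a ratio of 1.58-fold (1.28 to 1.95), under the rule, and nearly all of its reads belonged to AZF2.

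AZF2 is the only one of the 10 with more than 1 transcript model. The longer model, AT3G19580.1 of 1394 nt, had 51.8 and 79.2 estimated counts, and the shorter AT3G19580.2 of 1018 nt had 76.2 and 192. The shorter model took 59.5% of the locus's wild type counts and 70.8% in the jmj16-labelled library. Its ratio was 1.81-fold (1.39 to 2.41) and that of the longer model 1.09-fold (0.762 to 1.59). These intervals overlap, and the division of reads between the models is an estimate.

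Transcript length bears on all of these ratios, because the members are short. Across measured loci the log2 ratio fell with length (Spearman rho -0.43 over loci, which share both libraries and are not independent), from a median of 0.38 in the shortest decile to -0.87 in the longest. The members span 702 to 1431 nt. Over the 5914 measured loci in that range the median log2 ratio was 0.27, with 10.7% called higher and 4.08% lower. The trend at the members' own lengths ran from 0.15 for ZAT5 to 0.36 for AZF3. After it was taken out, the median of the 9 measured members was 1.05, and 4 passed the rule (ZAT7, ZAT8, ZAT12 and AZF3), against 6.24% of measured loci higher and 6.69% lower. The corrected log2 ratios were 2.66 for ZAT8 (1.57 to 4.26), 2.36 for ZAT7 (1.91 to 2.89), 2.28 for ZAT12 (1.68 to 3.00) and 1.05 for AZF3 (0.53 to 1.63). ZAT5 (0.93), ZAT10 (0.83) and ZAT6 (0.73) were then under 2-fold with intervals above 0. AZF1 had a corrected value of 1.42 with an interval that included 0 (-0.06 to 3.57), and AZF2 of 0.33 (0.02 to 0.64).

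**Figure D3:**
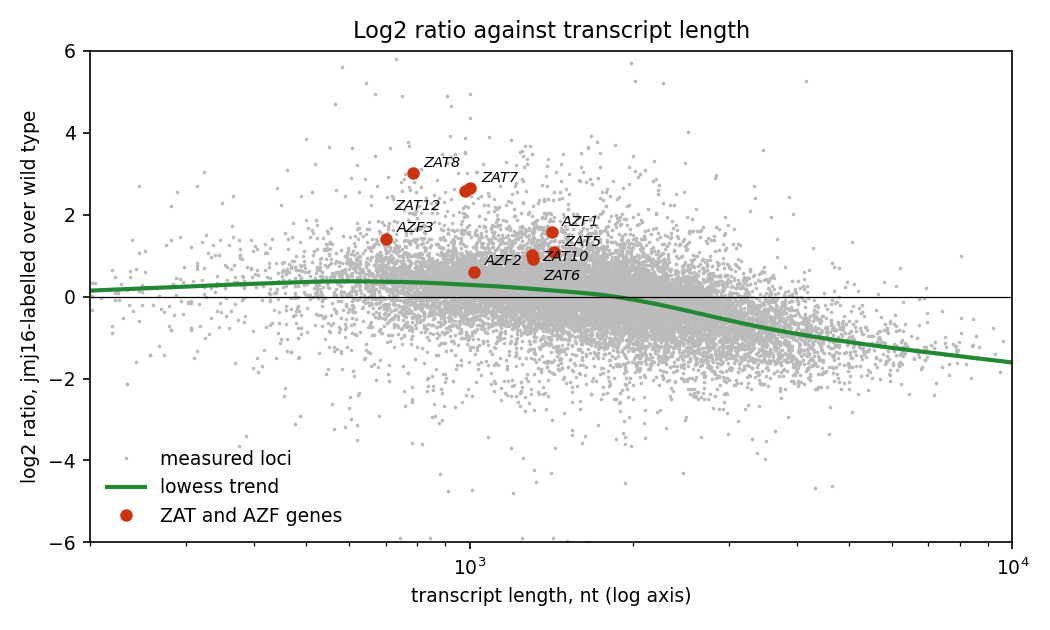
Log2 ratio (jmj16-labelled over wild type) against transcript length (log axis) for measured loci in grey, with the lowess trend in green and the 9 measured ZAT and AZF genes in red. All 9 lie above the trend, AZF2 closest to it, and 68 loci lie outside the plotted range.

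Other C2H2 zinc finger loci close to this family had low levels in these leaves, with 12 of 15 under 1 TPM in wild type and 10 of 15 in the jmj16-labelled library. Of the 15, 6 were measured, and of these 2 were higher, 0 were lower and the median log2 ratio was 1.01. Among all measured loci 7.22% were called higher and 10.6% lower. Both higher zinc finger loci, and AT2G45120, AT3G60580 and AT5G03510, reached the minimum of reads only with those of the jmj16-labelled library. The count and median of the 6 are therefore a description. AT2G28710 had 15 and 77 counts, 2.81 and 10.9 TPM, and was 3.61-fold higher (2.11 to 6.93). AT1G49900 had 10 and 42 counts and was 2.92-fold higher (1.5 to 6.77). Both passed after length correction, but neither had 100 reads over both libraries or passed a 4-fold rule, and AT1G49900 did not pass with log2(TPM + 1). DAZ1 and DAZ2, zinc fingers of the male germline, had 0 counts in both libraries.

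Kinases, oxidases and transcription factors that are placed upstream of the family were mixed in direction. All 11 were measured: 3 were lower, 0 were higher, and the median log2 ratio was -0.31. Ratios were above 0 for 4 and below 0 for 7, where 51.2% of all measured loci were above 0. The rule called 10.6% of all measured loci lower and 7.22% higher. MPK3 and MPK6, which phosphorylate ZAT10, had log2 ratios of 0.12 (0.03 to 0.21) and -0.15 (-0.28 to -0.01). CAMTA3 (SR1), a calmodulin-binding factor that has been linked to cold induction of CBF2 and ZAT12, had 469 and 224 counts and was 2.90-fold lower (2.47 to 3.42). CAMTA2 was 2.16-fold (1.67 to 2.81) and the heat shock factor HSFA1B (HSF3) 2.09-fold (1.68 to 2.61) lower. These transcripts are long, with a median of 2347 nt over the list, and after length correction CAMTA3 (log2 ratio -0.75) and CAMTA2 (-0.34) no longer passed. With log2(TPM + 1) or log2(TPM + 0.1), CAMTA3 was the 1 that passed. The NADPH oxidase gene RBOHD, which makes apoplastic reactive oxygen, had a log2 ratio of 0.49 that became 1.29 with length correction and then passed as higher. HSFA4A and MPK4 had log2 ratios of 0.68 (0.46 to 0.91) and 0.37 (0.21 to 0.53), or 0.94 and 0.88 corrected. After length correction 1 of the 11 was higher and 1 lower, with a median of -0.20. With the same correction 6.24% of all measured loci were higher and 6.69% lower.

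Other transcription factor genes of the rapid stress response were higher in part. Of 15 listed, 13 were measured, with a median log2 ratio of 0.79. Of these 13, 12 had a ratio above 0, 5 were called higher and 0 lower. Ratios were above 0 for 51.2% of all measured loci and for 68.8% of those of 702 to 1431 nt. Calls of higher were made for 7.22% and 10.7% of these loci, and calls of lower for 10.6% and 4.08%. The list's median length was 1338 nt. CBF1, RRTF1 and WRKY40 reached the minimum of reads only with those of the jmj16-labelled library. The cold response activator CBF1 had 15.7 and 155 counts and was 6.80-fold higher (4.17 to 12.5). Its counts are divided with those of CBF2 and CBF3: the 3 genes summed to 204 and 726, whole within 0.01, and this sum was 2.56-fold higher (2.19 to 3.01). The ethylene response repressor ERF11 was 3.21-fold (2.33 to 4.58), the redox-responsive RRTF1 2.69-fold (1.05 to 9.84) and CBF3 (DREB1A) 2.35-fold (1.94 to 2.88) higher. The fifth was SZF1, a CCCH zinc finger gene of the salt response, at 2.16-fold (1.88 to 2.49). With length correction 4 passed, without RRTF1 (log2 ratio 1.26). WRKY33, a defence regulator, had a log2 ratio of 0.87 (0.74 to 1.00), and ERF5 one of -0.32 (-0.88 to 0.25).

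Of the genes placed downstream, those for removal of peroxide and superoxide were mixed. Of 15 antioxidant and glutathione genes, 13 were measured, with a median log2 ratio of 0.15, and 3 were higher and 0 lower. All measured loci had a median of 0.02, with 7.22% higher and 10.6% lower. APX1, the peroxidase gene tied to ZAT12, had 2338 and 7662 counts, 208 and 522 TPM, and was 2.36-fold higher (2.26 to 2.48). The superoxide dismutase genes CSD1 and CSD2 were 2.44-fold (2.20 to 2.71) and 2.06-fold higher. None of these 3 passed after length correction, where APX1 and CSD1 both had log2 ratios of 0.96 and CSD2 one of 0.77. The catalase gene CAT2 had a log2 ratio of -0.93 (-0.98 to -0.87). GSH1, the glutathione synthesis gene tied to ZAT6, had 93.1 and 92.4 TPM and a log2 ratio of -0.08.

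Cold and dehydration genes included several that were higher. Of 10 listed, 9 were measured, with a median log2 ratio of 0.92, and 4 were higher and 0 lower. Over all measured loci the median was 0.02, with 7.22% called higher and 10.6% lower. KIN1 was 5.28-fold (3.50 to 8.62), LTI30 3.58-fold (2.93 to 4.44), the galactinol synthase gene GOLS3 2.99-fold (2.62 to 3.44) and COR15A 2.18-fold (1.98 to 2.40) higher. With length correction COR15A (log2 ratio 0.75) no longer passed. KIN1 shares reads with KIN2, and their sum of 2316 and 5642 counts had a ratio of 1.76-fold (1.67 to 1.84), under the rule. RD29A (LTI78), a dehydration gene of the same class, had a log2 ratio of -0.16 (-0.34 to 0.03).

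Corepressor genes, whose products EAR motif proteins recruit, were all called neither. The 8 measured had a median log2 ratio of -0.21, and their range was -0.93 to 0.48. These transcripts are long, and after length correction the median was 0.25, in the other direction, with 0 members passing. The histone deacetylase gene HDA19 (HD1) had a log2 ratio of 0.34, or 0.38 corrected, and TPL, TOPLESS itself, one of -0.32 that became 0.56. Touch-induced genes respond to handling of leaves. All 4 of the list, 910 to 1590 nt long, had ratios above 0. So did 51.2% of all measured loci and 68.8% of those of 702 to 1431 nt, a range that does not hold all 4. Of all measured loci 7.22% were called higher. The median log2 ratio of the touch genes was 0.32, and 1 was higher. That gene was TCH2, a calmodulin-like gene, at 2.38-fold (1.97 to 2.92), while TCH3 and TCH4 had log2 ratios of 0.23 and 0.09. After length correction TCH2 (log2 ratio 0.94) no longer passed, and TCH4 was at -0.01. The part of handling or of harvest time in the family's ratios was not tested.

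**Figure D4:**
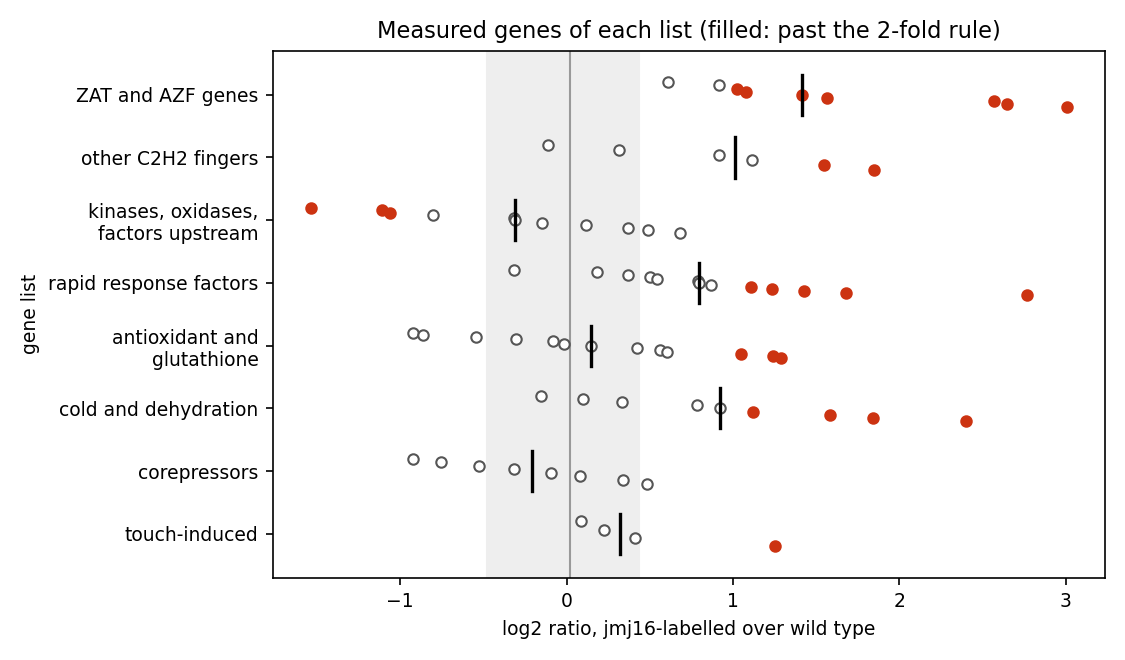
Log2 ratio (jmj16-labelled over wild type) for the measured genes of each list. Filled points passed the 2-fold rule, short vertical bars are list medians, the grey band spans the quartiles of all measured loci (-0.48 to 0.43) and the line in it their median of 0.02. The ZAT and AZF genes all lie to the right of the band, while corepressors and upstream genes lie on both sides of 0.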

How the data were processed

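Leaf RNA-seq of wild type and of the jmj16-labelled line was used, with 1 library each. The authors' deposited tables, 1 per library, give for each transcript model an unnormalized estimated count and its TPM, in Salmon's layout per the file headers. The submitters' processing notes name Salmon and the build TAIR10, with no version or role, beside TopHat2, Bowtie2, SAMtools and deepTools. Strandedness, trimming and annotation release: not given in the sources used here. Where genes overlap, their reads are therefore uncertain. The RefSeq table used for names is of assembly TAIR10.1 and matched 27445 loci, and no coordinates are printed.

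Estimated counts and TPM of 48359 transcripts were summed per locus, and summed counts were rounded. Libraries were scaled with TMM factors of 0.969 and 1.03 (edgeR 4.0.16, R 4.3.3, for scaling only). Log2 ratios used an added count of 0.5. Ratio intervals are Clopper-Pearson and count intervals Poisson, both exact at 95%. The trend of the log2 ratio with the length of each locus's most abundant transcript was fitted by lowess (span 0.3, statsmodels 0.14.6, Python 3.11.15). The calculation was tested on simulated data. The family, its members and the lists were chosen with earlier results of these data known. All members are named. Of each list, up to 4 called loci are named, largest difference first, or the 2 most read, and others are named for their role after their values were seen. Planned searches of protein and promoter motifs were not used here, and the list of related zinc finger loci stands in for a protein search.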

Additional observations from a re-analysis of the deposited data

How the results depend on the processing

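The 7 higher members became 3 with a 4-fold rule, 3 with the whole counting interval beyond 2-fold and 4 after length correction, while 0 were lower under every alternative run. Under the others (upper-quartile, total-count and median-of-ratios scaling, added counts of 5, log2(TPM + 1) and log2(TPM + 0.1), no minimum or a minimum of 100 reads, 1.5-fold, the most abundant transcript, counts rounded down) 5 to 9 were higher. Taking loci that share reads as 1 unit, a choice made after seeing the data, gave 5 higher units. The median log2 ratio stayed above 0 throughout, from 1.01 with an added count of 5 to 1.51 with total counts. ZAT6 passed with total-count scaling (log2 ratio 1.01), and AZF1 did not pass with an added count of 5 (0.88). ZAT5 (0.99) and AZF1 (0.60) did not pass with log2(TPM + 1). The log2 ratio of ZAT12 ranged from 2.27 to 2.66, that of ZAT7 from 2.36 to 2.74 and that of ZAT8 from 2.31 with log2(TPM + 1), 4.97-fold, to 3.25 with counts rounded down. Over the same settings, length correction included, higher calls numbered 1 to 8 in the rapid response list, 1 to 6 in the cold list and 0 to 4 in the antioxidant list. They numbered 0 to 3 among other zinc finger loci and 0 to 1 among touch genes, and lower calls 0 to 4 in the upstream list. In the other direction, 2 antioxidant and 2 corepressor loci were lower at 1.5-fold. With no minimum of reads 1 cold locus was lower. In the upstream list 1 locus was higher at 1.5-fold and 1 with length correction. The sums over CBF genes and over KIN genes were chosen after seeing the data. Other scalings moved the median of all loci by at most 0.09. No paired analysis was possible because there is 1 library per genotype, and for the same reason no library could be left out. Depth limits ZAT11, AZF1 and, in wild type, ZAT8.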
